A study of Mus musculus with 4 samples.

Results

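The comparison described here sets the first 2 sampled hours after foot shock against the 2 later ones in CA1 of the mouse hippocampus. All 4 samples of the series entered it, chosen by their titles: the 1 h and 2 h samples form the early side and the 4 h and 6 h samples the late side. The mice were young male C57BL/6J, with no allele or agent named. In all 4 samples they met a new spatial context 2 h before training and then received 3 foot shocks of 0.5 mA, each lasting 1 s and following 2 min in the chamber. They stayed there for 1 h after the last shock, and total RNA of CA1 was read on Affymetrix MG-U74Av2 arrays, 1 per time. The labels call this shock alone and do not say how many animals a sample holds. Mice without shock were not analysed here, so a difference does not show which side had moved from the level before shock. Time of day and hours since shock cannot be told apart either, and the 2 arrays of a side are different hours, so the spread within a side holds the step between its hours as well as array error.

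A foot shock in an unfamiliar place drives CA1 neurons, whose calcium and cyclic AMP signals activate CREB, serum response factor and other factors already present in the cell. These switch on immediate early genes within minutes, and the transcripts of most of them are short-lived. Stress also releases glucocorticoids, whose receptor raises its own set of genes over the following hours. Genes of slower programs, and clock genes that follow the time of day, move on a longer scale.

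For orientation, the sequence just upstream of the transcription start is given for Fos and Nr4a2, immediate early genes with higher values early. It is also given for Ginm1 and Kl, which had higher values late. The windows are RefSeq's, on GRCm38.p6, and hold the 250 bases before the annotated start, written 5′ to 3′ along the gene. Capitals mark TGACG, the core of the cyclic AMP response element that CREB binds, or CGTCA, the same core on the opposite strand.
Fos, chr12:85473640-85473889, plus strand: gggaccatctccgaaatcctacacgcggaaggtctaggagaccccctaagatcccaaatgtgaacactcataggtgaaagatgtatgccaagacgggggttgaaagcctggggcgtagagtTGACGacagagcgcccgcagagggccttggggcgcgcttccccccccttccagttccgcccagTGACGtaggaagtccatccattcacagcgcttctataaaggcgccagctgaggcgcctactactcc
Nr4a2, chr2:57124004-57124253, minus strand: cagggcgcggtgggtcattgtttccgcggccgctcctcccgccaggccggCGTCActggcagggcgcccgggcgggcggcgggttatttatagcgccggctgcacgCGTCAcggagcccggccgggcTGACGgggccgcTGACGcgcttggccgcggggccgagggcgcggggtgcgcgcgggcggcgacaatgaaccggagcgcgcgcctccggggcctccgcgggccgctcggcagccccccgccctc
Ginm1, chr10:7780918-7781167, minus strand: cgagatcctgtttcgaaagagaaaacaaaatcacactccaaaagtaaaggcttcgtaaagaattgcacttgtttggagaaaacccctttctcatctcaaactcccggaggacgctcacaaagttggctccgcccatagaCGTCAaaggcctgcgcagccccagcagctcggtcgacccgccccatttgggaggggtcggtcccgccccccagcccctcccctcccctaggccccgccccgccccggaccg
Kl, chr5:150952357-150952606, plus strand: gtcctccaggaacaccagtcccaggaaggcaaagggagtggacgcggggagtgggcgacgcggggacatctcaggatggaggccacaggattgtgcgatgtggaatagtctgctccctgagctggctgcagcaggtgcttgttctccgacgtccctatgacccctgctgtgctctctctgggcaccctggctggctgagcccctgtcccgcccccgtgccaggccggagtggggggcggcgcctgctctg
The cores in the Fos window begin 129 and 66 bases before the start. The Nr4a2 window holds 4 cores, the Ginm1 window 1 and the Kl window 0.

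The core lay on either strand in 21.4% of 196 windows of genes at least 1.5-fold higher early, in 23.9% of 88 windows of genes at least 1.5-fold higher late, and in 26.2% of 6133 windows of all genes tested. The measured members of the immediate early list had it in 55.9% of 34 windows. The whole element TGACGTCA, which contains the core, stood in 1.02% of windows higher early, 1.14% higher late and 2.40% of all tested. The E-box CACGTG of clock and other factors stood in 6.12%, 6.82% and 8.85% of the same windows, and the AP-1 site TGANTCA in 5.61%, 6.82% and 4.76%. The CArG box, the serum response factor's element, stood in 4.59%, 0% and 1.39%, and in 14.7% of the immediate early windows. Of those windows 5.88% held the whole element TGACGTCA, 20.6% the E-box and 0% the AP-1 site. Both strands were searched for every motif, and a match in letters is a description of the window alone.

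The arrays had been brought to a common trimmed mean, so their like level was set by the scaling, and they differed in their controls. Actin probe sets at the 3′ end read 1.74 to 2.70 times those at the 5′ end and Gapdh probe sets 3.24 to 4.82 times, both highest at 2 h and lowest at 6 h. Of 9 spike-in probe sets, for bacterial and phage transcripts added to the sample, 7 were separated with higher values early and 0 with higher values late, with a median difference of 0.26 on the log2 scale. Between 7312 and 7727 of 12422 probe sets lay above the floor of 100 intensity units. CA1 pyramidal cell markers were present on every array, Wfs1 at 1637 to 2608 and Neurod6 at 648 to 1263 units. Choroid plexus markers were also there, with Ttr, which encodes transthyretin, at 4482 units at 6 h and 89.9 to 198 before.

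**Figure D1:**
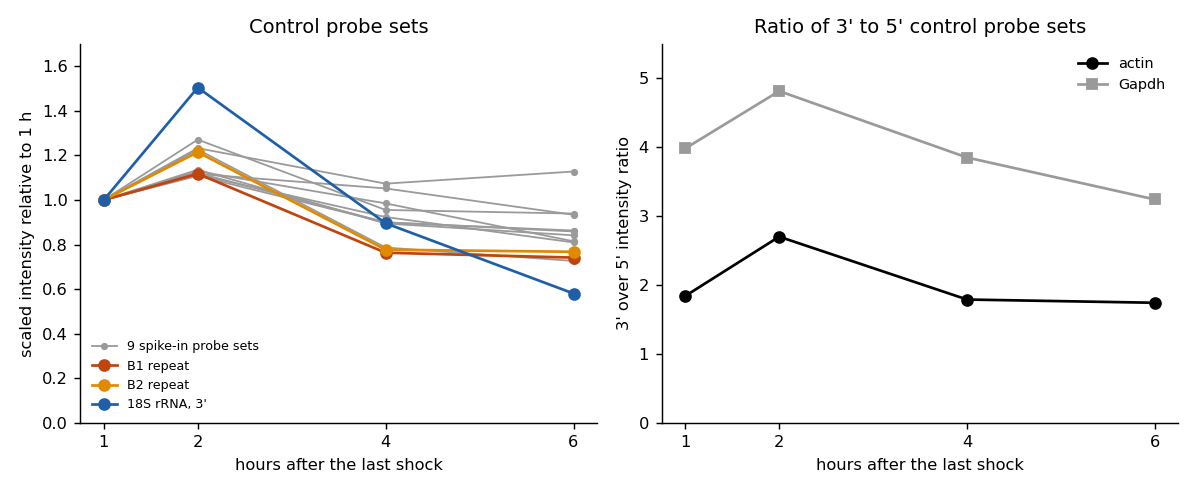
Control probe sets by hours after the last shock. Left, scaled intensity of 9 spike-in, the B1 and B2 repeat and the 3′ 18S probe sets relative to 1 h, each line 1 probe set; right, the 3′ over 5′ intensity ratio of actin and Gapdh. Actin's ratio was 2.70 at 2 h against 1.74 to 1.84 at the other hours, and B1 and B2 were higher at 1 h and 2 h than at 4 h and 6 h.

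Of 7722 tested probe sets, 1656 (21.4%) read higher on both early arrays than on both late arrays, and 1318 (17.1%) read lower on both. A probe set is called separated here when its sides do not overlap in this way, on log2 intensities with values under 100 raised to 100. With a difference of side means of at least 1.5-fold as well, 268 (3.47%) were higher early and 121 (1.57%) higher late, together 389 (5.04%). At 2-fold the counts were 31 (0.401%) and 25 (0.324%). With the brightest probe set standing for each of 5865 genes, 1242 genes (21.2%) were separated with higher values early and 1045 (17.8%) with higher values late. At 1.5-fold these were 195 genes (3.32%) and 89 genes (1.52%).

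The reference pairing, which mixes early and late as 1 and 4 h against 2 and 6 h, gave 304 probe sets at 1.5-fold (3.94%), 141 with higher and 163 with lower values at 1 and 4 h. The pairing of 1 and 6 h against 2 and 4 h gave 312. The early against late count of 389 exceeds that of the reference, and the number higher late, 121, is below either direction of the reference. At any size the early against late pairing held 2974 probe sets, the reference 2337 and the remaining pairing 2411. Each of the 7722 tested probe sets was separated in exactly 1 of these 3 pairings, so the counts at any size share a fixed total. At 2-fold, 56, 46 and 50 were left in the same order of pairings.

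**Figure D2:**
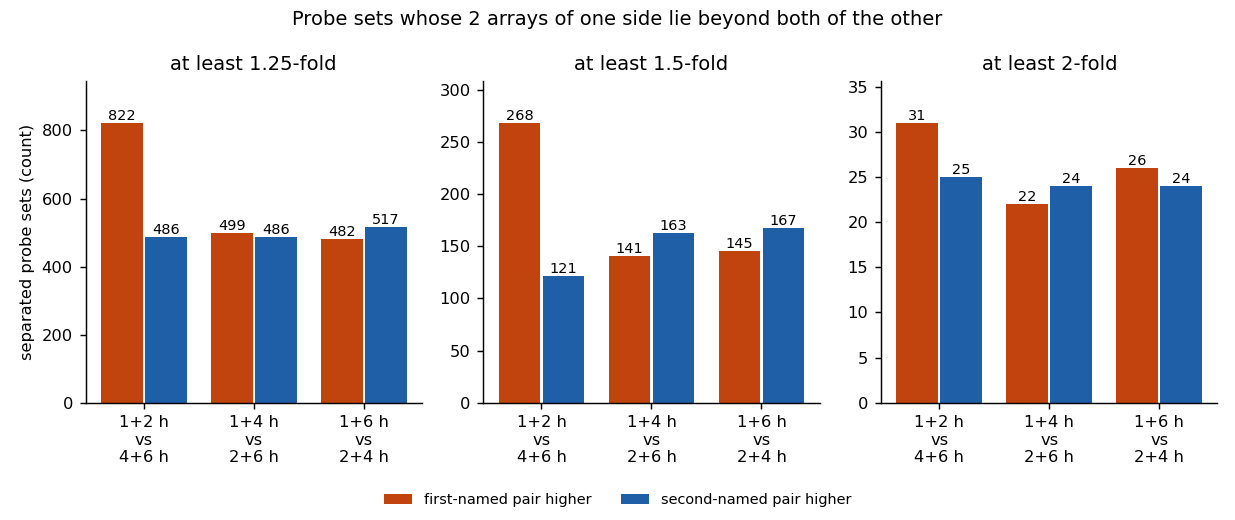
Counts of separated probe sets, of 7722 tested, in the 3 ways to split the 4 arrays into pairs, at 3 fold limits; bars give the first-named (red) or second-named (blue) pair higher, and the vertical scales differ. At 1.5-fold the early against late split has 268 higher early and 121 higher late, while the other splits have 141 to 167 in each direction.

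No probe set passed the test across all of them. Limma's moderated test on the 4 arrays called 0 of 7722 (0%) at a Benjamini-Hochberg adjusted p under 0.05, and the lowest adjusted p was 0.656. At an unadjusted p under 0.05 it had 572 (7.41%). The gene differences below are therefore descriptions of these 4 arrays, given with limma's standard error (SE), and none of them passed.

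Most of the separated differences of 1.5-fold lay in dim probe sets, as in the reference pairing, and the split between directions moved with the scaling. Among probe sets with a mean under 200 units, 139 were at least 1.5-fold higher early, 50 higher late and 170 separated by as much in either direction of the reference pairing. From 200 to 500 units the counts were 106, 53 and 114. Above that, 23 were higher early and 18 higher late, together 41, against 20 in either direction of the reference pairing. The median difference was 0.08 (log2) under 200 units and −0.03 from 1000 to 3000 units. Scaling the arrays to a common median in place of a common trimmed mean gave 183 higher early and 203 higher late, so the share higher early went from 68.9% to 47.4%. Quantile normalization gave 53.6%, and scaling to the spike-ins, chosen after the data were seen, gave 15.1%. At any size a common median gave 1035 separated higher early and 2091 higher late, quantile normalization 1437 and 1453, and the spike-ins 425 and 3319.

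**Figure D3:**
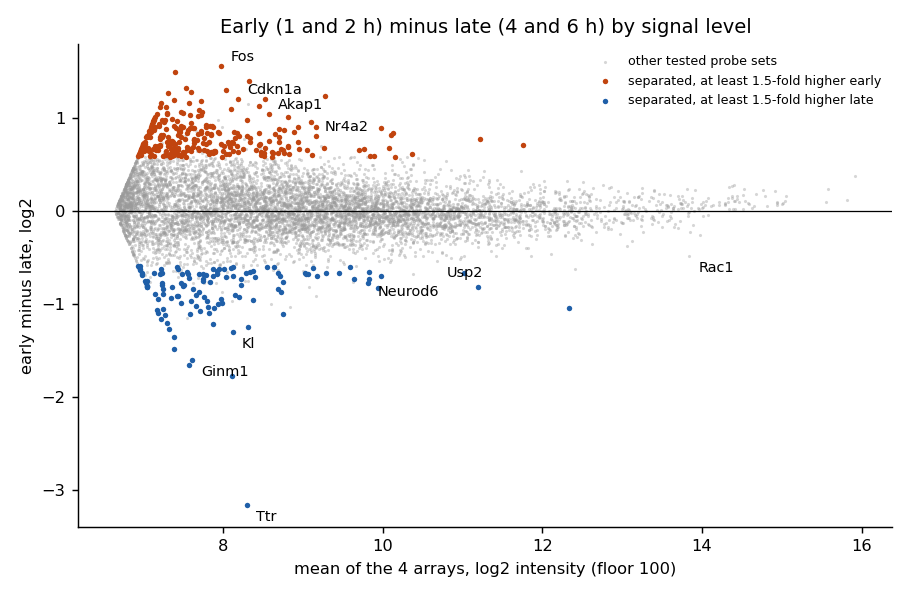
Difference of side means, early (1 and 2 h) minus late (4 and 6 h), against the mean of the 4 arrays, both log2 intensity, for 7722 tested probe sets. Red and blue points are separated and at least 1.5-fold higher early (268) or late (121); most lie at low levels, and Ttr at −3.16 rests on the 6 h array.

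Pairs of arrays from the same side differed about as much as pairs from different sides. The robust SD of log2 differences over 6456 probe sets above the floor on all 4 arrays was 0.28 between 1 and 2 h and 0.26 between 4 and 6 h. Across sides it ran from 0.28 for 1 against 4 h to 0.31 for 2 against 6 h. Of the 268 probe sets higher early, 164 were higher at 2 h of the early arrays and 104 at 1 h. Only 60 of the 268 had a gap of at least 1.5-fold between the nearest arrays of the sides, and 36 of the 121 higher late.

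The immediate early genes, nuclear factors and signalling genes that neurons switch on within minutes of firing, leaned to the early side. Of 38 on the array, 32 were measured, and 18 of these were separated with higher values early and 1, Homer1, with higher values late, where 21.2% and 17.8% of all genes were. Their median difference was 0.25 (log2), against 0.02 over all 5865 genes, and 28 were higher early on average and 4 lower. This list and those below were drawn up with earlier results of these data known, so their leans are descriptions and not independent of the data. At least 1.5-fold higher early were 5 members, against 3.32% of all genes: Fos, Egr2, Ccn2, Nr4a2 and Pim1. The median was 0.12 without the 2 h array, 0.11 without the 6 h array, 0.39 without 1 h and 0.38 without 4 h. The spike-in controls ran in the same order over the hours as this list, and scaled to them the list's median was 0.02 while that of all tested probe sets was −0.22. Fewer cells of a type and less RNA per cell cannot be told apart in such tissue samples.

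Fos, whose protein pairs with Jun proteins to form AP-1, had the largest difference of the list. It read 309.8 at 1 h and 607 at 2 h against 161 at 4 h and 134 at 6 h, in intensity units, and values below are given in this order of hours within each side. Both early arrays lay above both late ones, the 2 h array highest, and the means differed 2.95-fold (1.56 on the log2 scale, SE 0.36, limma adjusted p = 0.656). The other probe set of Fos was below the floor on all 4 arrays. Fosb, a close relative of Fos, read 671 and 722 early against 544 and 509.9 late, a difference of 0.40. Junb, an AP-1 partner, read 491 and 565 early against 483 and 331 late, so that 1 h and 4 h were nearly level, and its other probe set overlapped at 97.7 and 319 early against 189 and 227 late. The AP-1 members Jun and Jund differed by 0.15 and 0.10.

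The orphan nuclear receptors of the Nr4a family were separated as well. Nr4a2, which is also a marker of some neurons near the hippocampus, read 805 at 1 h and 713 at 2 h against 483 at 4 h and 388 at 6 h, a difference of 0.81 (SE 0.19, limma adjusted p = 0.656). Its second probe set read 393 and 303 early against 269.6 and 217 late, in the same order of hours. Nr4a1 read 604 and 997 early against 594 and 534 late, where only the 2 h array stood clear of the late ones. Egr2, a zinc finger factor, read 144 and 328 early against 32.5 and 122 late, with the late arrays near or below the floor. Its relative Egr1 overlapped between the sides at 1277 and 2195 early against 1737 and 1299 late, the 4 h array lying above the 1 h array.

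Other members with overlapping sides were the growth regulators Btg2, at 612 and 878 early against 638 and 553 late, and Gadd45b, at 425 and 570.5 early against 454 and 341 late, and Tiparp, at 162 and 365 early against 177 and 109.8 late. In each of the 3 the 2 h array was highest and the 1 h array below the 4 h array. Pim1, a kinase, read 404 and 489 early against 241 and 339 late, and Ccn2, a matrix protein also used as a marker of deep cortical neurons, read 319.7 and 193 early against 105 and 167 late. Ier2, a nuclear factor, read 219 and 247 early against 158 and 209.5 late. Homer1, a postsynaptic scaffold with a short activity-induced form, was dim at 134 and 93.5 early against 161 and 142 late, with the late arrays higher.

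Genes that respond to glucocorticoids, the adrenal hormones of stress, also leaned early. Of 27 measured members 14 were separated with higher values early and 3 with higher values late, where 21.2% and 17.8% of all genes were. Their median was 0.15, with 19 higher early on average, and it was 0.08 without the 6 h array and 0.25 without the 1 h array. Cdkn1a, which encodes the cell cycle inhibitor p21, read 407 at 1 h and 482 at 2 h against 270.0 at 4 h and 137 at 6 h, a difference of 1.20 (SE 0.36, limma adjusted p = 0.656). Its second probe set read 343 and 347 early against 242 and 181 late, also separated, and both were lowest at 6 h. Errfi1, which dampens signals of the epidermal growth factor receptor, read 1306 and 1636 early against 943 and 731 late, a difference of 0.82, while its second probe set, at 496 and 444 early against 261 and 462 late, overlapped between sides.

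Some bright members were separated by smaller differences. Sgk1, a kinase under corticosteroid control, read 2334 and 2013 early against 1675 and 1513 late, a difference of 0.45 (SE 0.12, limma adjusted p = 0.656). Dusp1, a phosphatase that switches off MAP kinases, read 737 and 819 early against 559 and 591 late, and Ddit4, an inhibitor of mTOR signalling, read 1292 and 1448 early against 1070.2 and 1068 late. In these 3 genes the late arrays were nearly level with each other or lower at 6 h. Mt1, a metallothionein, was separated the other way at 12663 and 12334 early against 15096 and 13241 late, with its late arrays higher. Hsd11b1, which regenerates active glucocorticoid, read 519.7 and 965 early against 941 and 967 late, low at 1 h alone. The receptor chaperone Fkbp5 overlapped at 1045 and 1297 early against 1407 and 1023 late. Scaled to a common median the list's median was 0.06, and to the spike-ins 0.02. The median of all tested probe sets was −0.07 and −0.22 under these scalings, against 0.02 under the main one.

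The immediate early and glucocorticoid lists share Per1, and a related list of phosphatases and MAP kinase feedback genes shares Dusp1 and Errfi1. Of that list's 14 measured members 5 were separated with higher values early and 1 with higher values late. Over all genes 21.2% and 17.8% were. The median of the list was 0.08. Dusp2, another of these phosphatases, read 415 and 499 early against 365 and 239 late, the 6 h array lowest. Scaled to a common median this list's median was −0.01, where that of all tested probe sets was −0.07.

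Late activity-regulated and neuropeptide genes were split, with 5 of 18 separated with higher values early and 2 with higher values late, against 21.2% and 17.8% of all genes, and a median of 0.04. Inhba, an activin subunit that neurons induce with activity, read 392 at 1 h and 235 at 2 h against 198 at 4 h and 111 at 6 h, a difference of 1.03 (SE 0.39, limma adjusted p = 0.656). Cort, the peptide cortistatin of some interneurons, was higher late at 522 and 734 early against 1173 and 896 late, a difference of −0.73. Bdnf, the neurotrophin needed for lasting memory, overlapped at 3226 and 3311 early against 3808 and 3059 late, with its highest value at 4 h. Nptx2, a pentraxin of excitatory synapses, also overlapped at 361 and 269 early against 322 and 384 late.

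**Figure D4:**
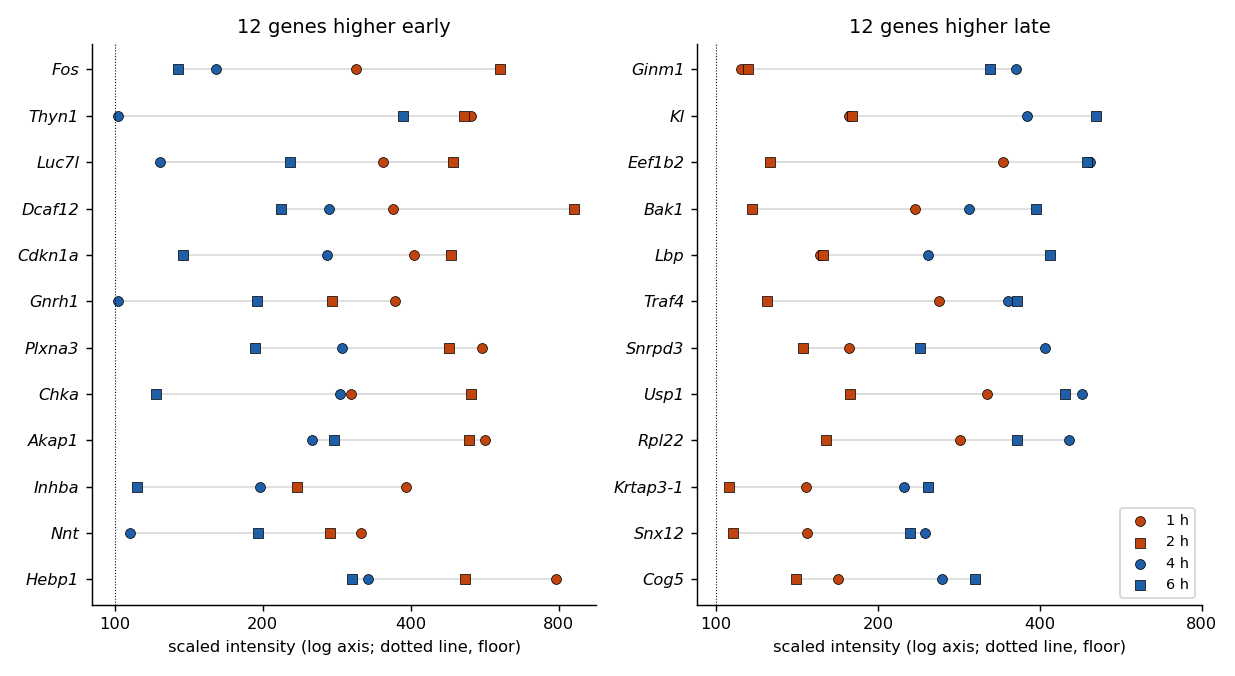
Scaled intensity of the 12 genes with the largest separated difference in each direction among those above the floor on all 4 arrays, 1 point per array, on a log axis; red is early (1 h circle, 2 h square) and blue late (4 h circle, 6 h square). No red point lies inside the blue range of its gene, while the 2 points of a side often lie far apart, as for Fos early (309.8 and 607) and Thyn1 late (102 and 385).

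The other genes with the largest differences toward the early side were dim. Akap1, which anchors protein kinase A at the mitochondrial surface, read 566 at 1 h and 527 at 2 h against 251 at 4 h and 279 at 6 h, a difference of 1.04 (SE 0.20, limma adjusted p = 0.656). Its other probe set above the floor read 170.3 and 138 early against 161 and 123 late and overlapped between sides. Plxna3, a receptor for semaphorins, read 559 and 479 early against 290.5 and 193 late. Hebp1, a heme-binding protein, read 789.7 and 515 early against 327 and 304 late. In these 3 the early arrays lay well above the late ones, although only 1 probe set carries each result.

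Thyn1 read 530.1 and 514 early against 102 and 385 late, and its other probe set read 174 and 205 early against 280.4 and 128 late with no difference, so that its place rests on a low 4 h value of 1 probe set. Luc7l, a splicing factor of the U1 particle, read 351 and 487 early against 124 and 228 late. Dcaf12 read 368 and 857 early against 273 and 217 late, high at 2 h above all. Chka, a choline kinase, read 302 and 531 early against 288 and 121 late, with 1 h and 4 h nearly level. Gnrh1, the gonadotropin-releasing hormone precursor, read 371 and 276 early against 101 and 195 late, and Nnt, the mitochondrial transhydrogenase, read 316 and 274 early against 107 and 195 late. Gnrh1 and Nnt had their lowest value at 4 h rather than 6 h.

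A few genes lay below the floor on both late arrays and well above it early. Ddr2, a collagen receptor, was at least 2.82-fold higher early, at 204 and 391 early against 69.5 and 48.2 late. Mrc2, an endocytic collagen receptor, was at least 2.24-fold higher, at 198 and 254 early against 36.3 and 97.6 late. Kcnd3, a potassium channel subunit of A-type currents, was at least 1.96-fold higher, at 195 and 196 early against 53.0 and 83.8 late. Values below 100 units carry no order among themselves, so these folds are taken against the floor. These genes had the required 2 arrays above the floor only on the early side, so their separation was fixed in advance.

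In brighter genes the early side stood higher in Gabra2, an alpha subunit of the GABA-A receptor, which read 1865 at 1 h and 1199 at 2 h against 756 at 4 h and 926 at 6 h, a difference of 0.84. Fezf2, a factor of deep-layer cortical neurons, read 2133 and 2158 early against 1375 and 1579 late, a difference of 0.54 (SE 0.11, limma adjusted p = 0.656). Dcn, the matrix proteoglycan decorin, read 5844 and 3395 early against 2523 and 2915 late, highest at 1 h. Relb, an NF-kB subunit, was dim and read 331 and 326 early against 198 and 206 late, a difference of 0.70 with each side nearly level. The other probe set of Relb was above the floor only at 2 h.

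Toward the late side the largest differences among genes above the floor were in Ginm1, a membrane glycoprotein, and Kl, which encodes klotho and is made by the choroid plexus. Ginm1 read 111 at 1 h and 114 at 2 h against 361 at 4 h and 323 at 6 h, a 3.03-fold difference (−1.60 on the log2 scale, SE 0.23, limma adjusted p = 0.656). Kl read 177 at 1 h and 179 at 2 h against 378 at 4 h and 508 at 6 h, a difference of −1.30 (SE 0.25, limma adjusted p = 0.656). In both the early arrays were nearly level and less than the lower late array by more than 2-fold. H2-M3, a nonclassical class I histocompatibility gene, read 115 and 92.2 early against 308 and 373 late, and its second probe set was below the floor on all 4 arrays. Kl stood beside other choroid plexus genes, Lbp at 156 and 158 early against 248 and 417 late and Ttr at 111 and 89.9 early against 198 and 4482 late.

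The choroid plexus list as a whole had a median of −0.54 (log2, early minus late) over 8 measured members of 12 on the array, and −0.19 without the 6 h array. Separated with higher values late were 4 members, Ttr, Kl, Lbp and Aqp1, the last near the floor. With higher values early there was 1, Foxj1 of ciliated ependyma. Over all genes 17.8% were separated late and 21.2% early. The mean log2 level of the list ran from 7.74 to 9.03 over the arrays, highest at 6 h. Its members too were chosen with earlier results of these data known, so their agreement is not independent of the data. The part of this tissue in other late differences was not tested.

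Among the remaining genes of the late side, Eef1b2, a translation elongation factor, read 341 and 126 early against 495 and 489 late, low at 2 h above all, and its other probe set was below the floor on 3 arrays. Bak1, which opens the mitochondrial membrane in apoptosis, read 234 and 117 early against 296 and 393 late, and Usp1, a deubiquitinase of DNA repair, read 319 and 177 early against 478 and 445 late. Rpl22, a ribosomal protein, read 284 and 160.2 early against 454 and 362 late. In these 4 the 2 h array was the lowest. The dimmer second probe set of Rpl22 overlapped between sides, at 234 and 67.1 early against 97.7 and 133 late. Cog5, of the Golgi tethering complex, read 168 and 141 early against 263 and 303 late, and the sorting nexin Snx12 read 148 and 108 early against 245 and 229.6 late. The other probe set of Snx12 overlapped at 132 and 157 early against 135 and 143 late. Traf4 read 259.9 and 124 early against 349 and 363 late, while its second probe set at 299 and 259 early against 272 and 194 late leaned the other way.

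Genes that lay below the floor on both early arrays and at 2 times the floor or more on both late ones were Reg1, Lsm2 and Tmc6 among those named by rank. Reg1, known from pancreatic islets, was at least 2.80-fold higher late, at 73.4 and 53.3 early against 264 and 296 late. Lsm2, of the RNA-binding ring of the U6 particle, was at least 2.23-fold higher, at 63.4 and 52.6 early against 232 and 215 late. Tmc6 was at least 2.14-fold higher, at 66.8 and 56.6 early against 221 and 207 late. These genes had the required 2 arrays above the floor only on the late side, so their separation too was fixed in advance.

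Brighter genes with higher values late included Rac1, a regulator of spine actin, which read 12648 at 1 h and 12145 at 2 h against 16814 at 4 h and 17848 at 6 h, a difference of −0.48 (SE 0.08, limma adjusted p = 0.656). The pyramidal neuron factor Neurod6 read 768 and 648 early against 1263 and 1089 late, a difference of −0.73, and Wfs1, the CA1 marker that encodes wolframin, read 1709 and 1637 early against 2608 and 2205 late, a difference of −0.52. Kat2a, a histone acetyltransferase, was dimmer and read 357 and 275 early against 625 and 526 late. Kcnd2, a potassium channel of pyramidal dendrites, read 482 and 509 early against 859 and 720.5 late, and its second probe set was separated the same way with smaller values. Snap91, of clathrin coats at synapses, read 977 and 829.7 early against 1255 and 1296 late, and Sypl, a synaptophysin relative, read 753 and 829.7 early against 1089 and 1509 late. In Rac1, Neurod6 and Wfs1 the step between sides was wider than the step within either side.

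CA1 pyramidal markers did not shift together. Of 9 measured, 4 were separated with higher values early, namely Dcn, Pou3f1, Neurod2 and Ccn3, and 3 with higher values late, namely Neurod6, Wfs1 and Man1a, with a median of 0.04. The thalamic and habenular markers had a median of 0.29 over 10 genes, 5 separated with higher values early, among them Nr4a2, Lef1, Tac2 and Calb2, and 0 late, where 21.2% and 17.8% of all genes were. That median was 0.07 without the 2 h array. Neocortical markers had a median of 0.14 over 5 genes, and 0.00 without the 1 h array, with Fezf2 and Ccn2 separated early. Interneuron markers had 0.11 over 13 genes, and 0.06 without the 6 h array, 6 separated early, among them Dlx2, Calb2 and Cck, while Sst, Gad1 and Pvalb overlapped and Reln was higher late at 740.2 and 638 early against 1108 and 797 late. The dimmer second probe set of Reln was separated the opposite way, at 166 and 151 early against 97.3 and 31.4 late, below the floor on both late arrays. Oligodendrocyte markers leaned late, with a median of −0.14 and 10 of 12 lower early on average, although 3 were separated late and 1 early. Their median was −0.06 without the 2 h array and also without the 6 h array. Mog, a myelin glycoprotein, read 393 and 375 early against 445 and 501 late. Lef1, a Wnt pathway factor, read 574 and 507 early against 366 and 336 late, and its dimmer second probe set was below the floor late. The part of dissection in the gene differences was not tested.

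Astrocyte, microglial and meningeal markers had medians of 0.01, 0.00 (below 0) and 0.01. CA3 and dentate markers had 0.14 over 7 genes, and −0.05 without the 6 h array. Of these 1 was separated early and 0 late. That 1 was Calb2, which is also counted among the interneuron and the thalamic and habenular markers. Endothelial and mural markers had 0.09 over 12 genes, with 2 separated early and 1 late. Over all genes 21.2% were separated early and 17.8% late. Blood cell markers had −0.20 over 4 genes, among them Hba-a1, an alpha globin, at 2783 and 3059.8 early against 3674 and 3413 late. Striatal markers had −0.01 over 5 genes.

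Splicing factors leaned late. Of 38 measured genes 14 were separated with higher values late and 4 with higher values early, where 17.8% and 21.2% of all genes were, with a median of −0.11 and 25 lower early on average. Srsf5, an SR protein, read 1158 and 1132 early against 1742 and 1465 late, Hnrnpdl read 2654 and 2213 early against 3203 and 3025 late, and Srsf1 read 176 and 214 early against 327 and 282 late. Snrpd3, a core Sm protein, read 177 and 145 early against 408 and 239 late, and Sf1, the branch point binding protein, was the main exception at 277 and 275 early against 121 and 228 late. The other probe set of Sf1 was below the floor on all 4 arrays. In Srsf5, Srsf1 and Snrpd3 the 4 h array was highest. Proteasome subunits leaned the same way in small steps, with 10 of 31 separated late and 2 early and a median of −0.10, which was −0.02 without the 4 h array. Psmd11, a lid subunit, read 1816 and 2174 early against 2322 and 2383 late, and Psma2, a core subunit, read 3473 and 3464 early against 4011 and 3808 late. Neither list had a member at an adjusted p under 0.05, which held for all lists.

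Cholesterol synthesis enzymes had a median of 0.18 over 16 genes, and 0.04 without the 1 h array, with 5 separated early and 2 late, where 21.2% and 17.8% of all genes were. Fdps, which makes farnesyl diphosphate, read 1188 and 892 early against 746 and 758 late, and Idi1, the isomerase before it, read 1209.8 and 1167 early against 978 and 974 late. Both were highest at 1 h, while the other probe set of Fdps overlapped at 582 and 471 early against 392 and 484 late. Sqle, squalene epoxidase, overlapped at 798 and 565 early against 616 and 1084 late, highest at 6 h. Scaled to the spike-ins, where the median of all tested probe sets was −0.22, this list had −0.07, the clock list described next −0.13, and the interneuron list −0.14.

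Of 17 measured clock genes 4 were separated with higher values early and 1 with higher values late, where 21.2% and 17.8% of all genes were. Their median was 0.12, and −0.03 without the 2 h array. Per1, a period gene that both activity and glucocorticoids induce, read 441 at 1 h and 445 at 2 h against 313 at 4 h and 385 at 6 h, a difference of 0.35. Dbp, a clock output factor with a strong daily rhythm, was instead higher late at 461 at 1 h and 374 at 2 h against 623 at 4 h and 706 at 6 h, a difference of −0.68 (SE 0.19, limma adjusted p = 0.656). Cry2, a cryptochrome, read 202 and 227 early against 156 and 147 late. The core factors Arntl and Clock overlapped between the sides at 476 and 542 early against 537 and 471 late for Arntl and 247 and 383 early against 260.3 and 306 late for Clock. The clock hour at which each sample was taken is not given in the sources used here.

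The remaining housekeeping, signalling and synaptic groups had medians from −0.05 to 0.10, against 0.02 over all genes. Of all genes 21.2% were separated with higher values early and 17.8% with higher values late. Oxidative phosphorylation genes had a median of 0.02 over 53 genes with 12 separated early and 14 late, and ribosomal protein genes 0.00 (below 0) over 22 with 8 and 5. Translation factors had −0.02 over 28 with 5 and 6, glycolytic genes −0.01 over 19 with 4 and 4, and cytoskeletal genes −0.04 over 46 with 9 and 11. Chromatin-modifying enzymes had −0.02 over 32 with 3 and 8. Endoplasmic reticulum chaperones had 0.00 over 23 with 3 and 5, and heat shock proteins −0.05 over 27 with 3 and 5. Synaptic vesicle genes had 0.10 over 23 with 7 and 5, postsynaptic scaffolds −0.04 over 13 with 3 and 2, and calcium and cyclic AMP signalling genes −0.03 over 28 with 6 and 7. Potassium channels had −0.05 over 20 with 6 and 7, glutamate receptors −0.01 over 7 with 2 and 0, GABA genes 0.02 over 7 with 2 and 0, and NF-kB genes −0.01 over 16 with 6 and 4. Median and mean over members differed in sign for the ribosomal, synaptic vesicle, endoplasmic reticulum, potassium channel and NF-kB lists and for the CA1, microglial and striatal markers.

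**Figure D5:**
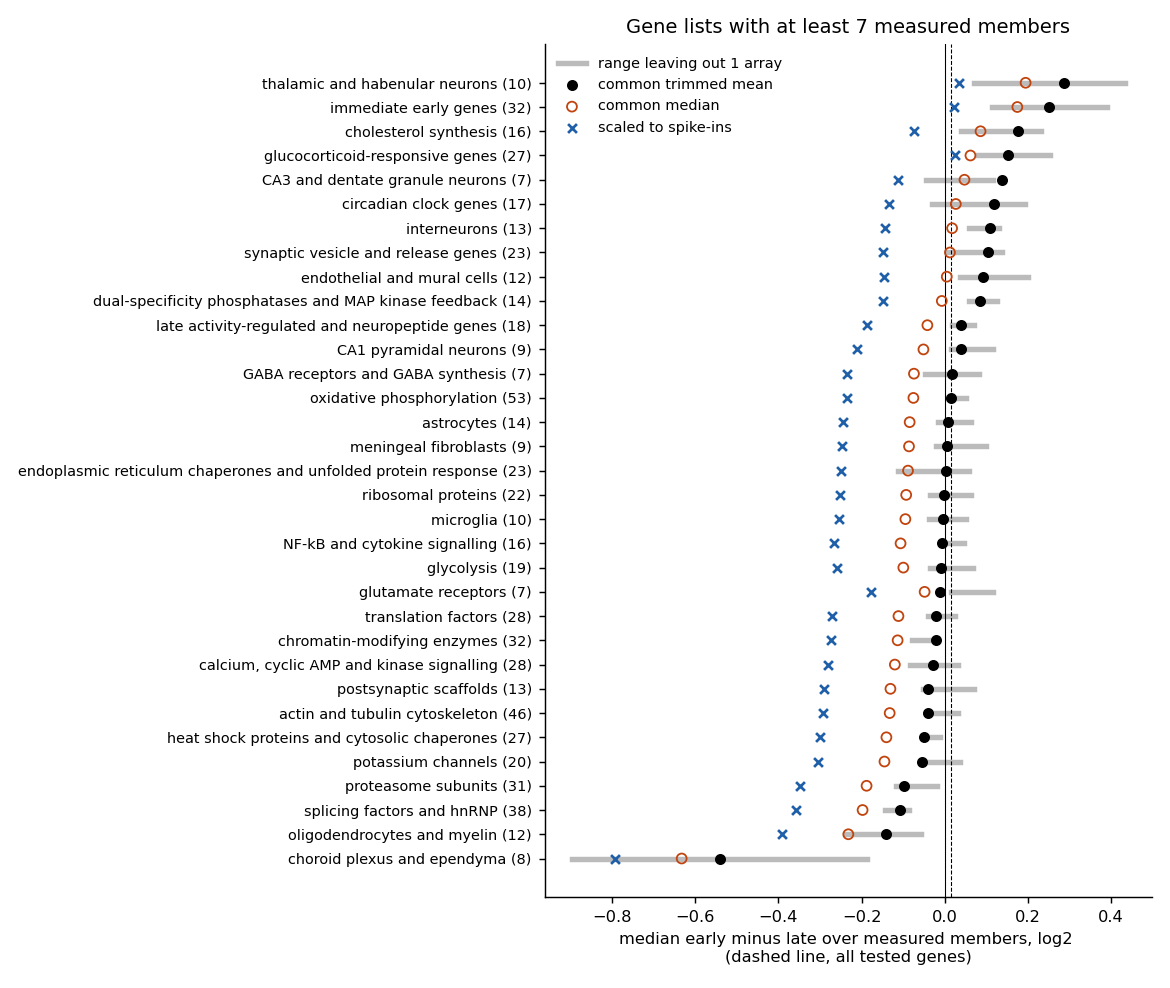
Median log2 difference, early minus late, over the measured members (number in brackets) of each list with at least 7; black points use the common trimmed mean, open red circles a common median and blue crosses the spike-ins, and grey bars span the values with 1 array left out. Immediate early genes lie at 0.25 and choroid plexus genes at −0.54, and both other scalings lower every list, though not by the same amount.

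Second probe sets give a check that the choice of the first did not use. The 22 genes at least 1.5-fold higher early by their brightest probe set and with another one tested had 23 such others, of which 4 were separated the same way and 1 the opposite way. That is 17.4%, against 21.3% of all 1090 second probe sets. For 12 genes higher late, 3 of 12 second probe sets were separated the same way and 0 the opposite way, 25.0% against 14.7% of all. In the reference pairing 1 of 12 and 2 of 17 were. Most of these second probe sets, which are the dimmer ones of their genes, were thus not separated the same way. The sign was the same in 13 of the 23 and in 5 of the 12. Only 22 of 195 genes higher early and 12 of 89 higher late could be checked in this way.

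Genes with at least 2 probe sets separated the same way, at a fold limit lower than 1.5, numbered 12 higher early and 6 higher late. They were found among genes with 1090 second probe sets in all. No share of such genes and no count for the reference pairing are given here. The 2 counts therefore have no background rate, and the genes below are descriptions rather than replicated differences. Besides Cdkn1a, Nr4a2 and Lef1, Txnip, a glucose-responsive inhibitor of thioredoxin, read 424 and 491 early against 348 and 298 late on its brighter probe set and 227 and 254 early against 142 and 220.1 late on the other. Dnajc3 and Wnk1 also qualified, but the brightest probe set of each overlapped, at 501 at 1 h and 524 at 2 h against 447 at 4 h and 549 at 6 h for Dnajc3. On the late side Usp2, a deubiquitinase with a daily rhythm in many tissues, read 1605 at 1 h and 1418 at 2 h against 2030.2 at 4 h and 2157 at 6 h, while the other of its probe sets read 1360.1 and 1373 early against 1814 and 2170.5 late, a difference of −0.54. Itgb1, the beta-1 integrin, read 518 and 923 early against 1156 and 1210.5 late on its brighter probe set and 176 and 210.1 early against 292 and 321 late on the other. Pip4k2a, a lipid kinase, was separated in all 3 of its probe sets, the brightest at 895 to 1102 units. Uri1 had 2 probe sets higher late and another, below the floor late, higher early.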

How the data were processed

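Total RNA of CA1 from 4 samples was read on Affymetrix MG-U74Av2 arrays, 1 per time. The authors deposited a linear intensity per probe set, already at a common trimmed mean, and the software that made it is not given in the sources used here. Gene names came from the platform annotation, updated through RefSeq; of 12422 probe sets other than 66 controls, 10833 had 1 symbol, 396 several and 1193 none, and only the first kind were named. From the deposited intensity values each array was rescaled (0.999 to 1.001) to a common trimmed mean, leaving out 2% at each end, floored at 100 and put on the log2 scale. Tested probe sets had at least 2 of 4 arrays above the floor, 7722 in all. A probe set at the floor on both arrays of a side passed through the other side alone and was separated by that. The counts include such probe sets. Sides were compared by separation and fold (1.5 unless said) and by limma 3.58.1 (R 4.3.3, lmFit and eBayes with a trend, Benjamini-Hochberg). No untreated samples enter, and nothing says that samples come from separate animals, so p-values measure only the spread between these arrays. The number of arrays limits the precision.

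Gene lists use the brightest probe set per gene. Genes were named by rank: the 12 largest separated differences in each direction, 4 bounds against the floor, 8 genes with several probe sets separated alike, 3 members per list, the 5 widest gaps, and a fixed set. Values of further list members are given as examples and were chosen after they were seen. Members and lists were chosen with earlier results of these data known. Of the genes at least 1.5-fold higher early, 159 of 195 matched a RefSeq promoter window, and of those higher late 71 of 89. The steps were tested on simulated arrays. Alternatives were other scalings, floors, filters, fold limits and each array left out; scaling to the spike-ins was added after the data were seen. Figures were drawn with matplotlib 3.10.9 under Python 3.11.15, and tables were handled with pandas 2.3.3 and NumPy 2.4.6.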

Additional observations from a re-analysis of the deposited data

How the results depend on the processing

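No paired analysis was possible because the labels carry no replicate numbers and each hour has 1 array. Counts at 1.5-fold are given as higher early, higher late, both, and the reference pairing of 1 and 4 h against 2 and 6 h. They were 581, 273, 854 and 740 with the floor at 50, 81, 50, 131 and 87 with the floor at 200, 159, 72, 231 and 157 among probe sets above the floor on all 4 arrays, and 23, 18, 41 and 20 when the mean had to reach 500 units. At any size they were 1656, 1318, 2974 and 2337, and at 2-fold 31, 25, 56 and 46. A common median gave 203 higher late, and spike-in scaling 92 higher early, 518 higher late and 610 in all. Leaving out 1 array asks less of a probe set: without replicate 1 or 2 of a side, counts ran from 391 to 579 higher early, 226 to 326 higher late and 625 to 905 in all, the highest without the 1 h array. Limma called 0 at an adjusted p under 0.05 in each of these fits, with 315 to 957 at an unadjusted p under 0.05. Under the spike-in scaling, which moved the median of all probe sets from 0.02 to −0.22, 8 of 158 named probe sets changed sign: Mcam at −0.0186, Hspa8 at −0.0400, Foxj1 at −0.0646, Dlg3 at −0.0713, Cacng2 at −0.11, Laptm5 at −0.11, Col1a2 at −0.11 and Gria2 at −0.15, and 33 were no longer separated. A common median ended the separation of 14. The causes were not tested. Dim signals limit the rest, since most differences lay under 500 units.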

Other observations

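Some control probe sets, which did not enter the gene lists, were separated between the sides too. The B1 repeat, a short interspersed element found in many transcripts, read 102419 at 1 h and 114466 at 2 h against 78167 at 4 h and 75919 at 6 h, a difference of 0.49 on the log2 scale. The B2 repeat read 60823 and 73879.5 early against 47249 and 46678 late, a difference of 0.51. For 18S ribosomal RNA the 3′ probe set read 3226 and 4854 early against 2889 and 1872 late, and the 5′ one 1386 and 2007 early against 991 and 383 late. Actin's 3′ probe set read 46112 and 46403 early against 40430.2 and 34881 late, and its 5′ probe set overlapped between the sides at 25052 and 17173 early against 22593 and 20017 late. The spike-in CreX at its 5′ end read 51339 and 62949.9 early against 40383 and 37292 late, a difference of 0.55, which is as large as that of either repeat. These values were not tested against the gene differences.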
